A study of Rattus norvegicus with 97 samples.

Results

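HAD1 and LAD1 are 1 of 5 pairs of rat lines bred for high or low alcohol drinking whose nucleus accumbens shell was profiled on Affymetrix rat arrays. All arrays titled for this pair were taken, 10 from HAD1 animals and 9 from LAD1 animals, which is 19 of the 97 arrays in the series, with 1 animal per array. HAD1 is labelled as the alcohol-preferring line and LAD1 as the non-preferring line, and HAD2 and LAD2 carry the same names with another number. The labels give a line, a preference and an animal number, and neither age, sex nor alcohol exposure. Each line is a single breeding population, so the p-values below measure the spread between animals of these particular lines, and the effect of selection cannot be told apart from other differences that accompany a line. Differences are given as HAD1 minus LAD1 on the log2 scale, so that 1 unit is a doubling, and a probe set was called when its limma p-value, adjusted by Benjamini and Hochberg over all 31042 probe sets tested, was below 0.05.

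The nucleus accumbens shell is a ventral part of the striatum that receives dopamine from the midbrain and glutamate from cortex, hippocampus and amygdala. Most of its neurons are GABAergic medium spiny neurons, with a minority of cholinergic and GABAergic interneurons. Glutamate receptors, peptide signals and the kinases held at synapses by anchoring proteins set how these neurons respond to rewards, alcohol among them.

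Both lines had the profile of striatal tissue. The mean of the spiny neuron markers lay between 12.1 and 12.5 in every one of the 19 arrays, and the mean of the markers of neighbouring pallidal, septal and forebrain regions lay between 7.46 and 8.26. None of the 19 measured spiny neuron markers was called, with or without the arrays described next. Array medians ran from 7.83 to 7.91 over the pair. Since a bulk sample mixes cell types, fewer cells of a type and less RNA per cell cannot be told apart in any value below.

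One array of each line did not lie with its label. Each array received a label score based on 50 probe sets, chosen on the remaining animals for how well they separate HAD1 from LAD1. The score is 0 at the LAD1 median and 1 at the HAD1 median. The array labelled HAD1 28 scored 0.0188, while the other 9 HAD1 arrays scored between 0.783 and 1.1. The array labelled LAD1 37 scored 0.982, while the other 8 LAD1 arrays scored between -0.0343 and 0.234. Without these arrays, 346 probe sets were called and parted all 9 HAD1 from all 8 LAD1 animals. At these, HAD1 28 was nearer the LAD1 mean in 326 and LAD1 37 was nearer the HAD1 mean in 322. Both arrays lay on the opposite side to their label in 303 of the 346, and both lay on their own side in 1. HAD1 28 had a mean correlation across probe sets of 0.992 with the other HAD1 arrays and of 0.995 with the LAD1 arrays. LAD1 37 had a mean correlation of 0.99 with LAD1 and of 0.993 with HAD1. Why these arrays lay there was not tested. They kept their labels. The counts of calls are given with all 19 arrays and with the 17 others.

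**Figure D1:**
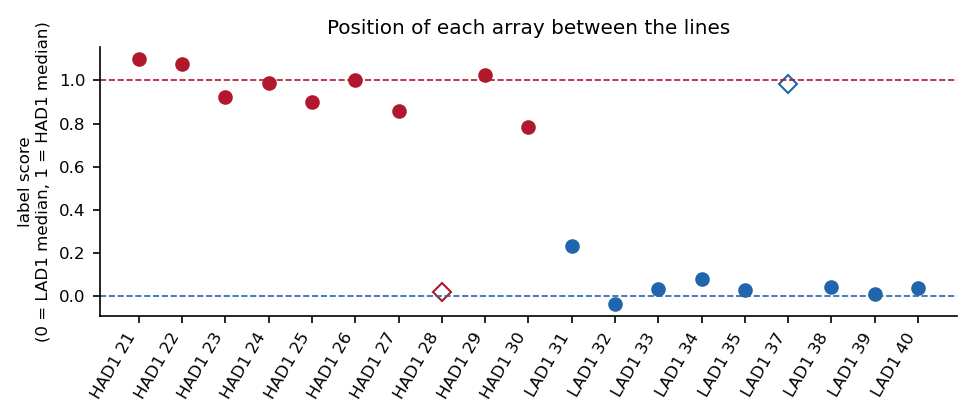
Label score of each HAD1 (red) and LAD1 (blue) array, on a scale where 0 is the LAD1 median and 1 the HAD1 median of the separating probe sets (dashed lines). Open diamonds mark HAD1 28, at 0.0188, and LAD1 37, at 0.982. The other arrays lie near the line of their label.

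With all 19 arrays, 371 probe sets were called (1.2% of those tested), 171 higher in HAD1 (0.551%) and 200 lower (0.644%). Of these, 3 (0.00966%) had no overlap between the lines. With the 17 arrays, 1237 were called (3.98%), 608 higher (1.96%) and 629 lower (2.03%), and 346 (1.11%) had no overlap. The second set held 370 of the 371. At an unadjusted p below 0.05 the shares were 9.89% with 19 arrays and 13.1% with 17. Values below are for the 17 arrays, 9 HAD1 and 8 LAD1, unless 19 are named. The arrays left out were chosen because their expression lay opposite to their label. Leaving them out narrows the spread within each line at probe sets that separate the lines. The p-values and statements of no overlap with 17 arrays are therefore optimistic and hold only for the animals kept. Of the 140 probe sets named by rule, 63 were also called with 19 arrays and 77 were not.

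Among probe sets with a gene symbol, Mis18a and Mx2 had the largest deficits in HAD1. Mis18a, which takes part in loading the centromeric histone, ran from 6.41 to 7.38 in HAD1 with a median of 6.78, and from 10.35 to 10.95 in LAD1 with a median of 10.65. HAD1 28 read 11.01 and LAD1 37 read 6.96. The lines were more than 2 units apart at their nearest animals once these arrays were set aside, and the difference was -3.84 ± 0.128 (SE, adjusted p = 1.44e-13), or 14.3-fold. With all 19 arrays it was -3.01 (adjusted p = 0.00936).

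Mx2, an interferon-induced GTPase of the dynamin family, ran from 4.83 to 5.47 in HAD1 and from 8.40 to 8.95 in LAD1 on one probe set, with HAD1 28 at 8.64 and LAD1 37 at 4.91. The difference was -3.60 ± 0.0932 (adjusted p = 1.75e-15), or 12.1-fold. On the other Mx2 probe set, which is the brighter over the series, HAD1 ran from 6.91 to 7.27 and LAD1 from 7.19 to 7.54, and the difference was only -0.25 (adjusted p = 0.0173; adjusted p = 0.256 with 19 arrays). Both probe sets were lower in HAD1, but they differed in size by more than 3 log2 units.

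Rab22a, a small GTPase of endosomes, ran from 6.62 to 7.15 in HAD1 and from 8.54 to 9.16 in LAD1, a difference of -1.98 ± 0.0844 (adjusted p = 4.03e-12) on 1 of its 3 probe sets. Ptprj, a receptor-type tyrosine phosphatase, ran from 8.69 to 9.77 in HAD1 and from 10.75 to 11.44 in LAD1 (-1.94 ± 0.127, adjusted p = 4.27e-09) on 1 of its 2 probe sets. On these probe sets the 17 animals did not overlap by line, and both calls held with 19 arrays. The other Ptprj probe set had the opposite sign and was not called. Akap5, which anchors protein kinase A and calcineurin beneath the postsynaptic membrane, ran from 9.38 to 10.62 in HAD1 and from 11.14 to 11.73 in LAD1, again without overlap (-1.35 ± 0.149, adjusted p = 6.61e-06). The actin-severing protein gelsolin (Gsn) was 2.35-fold lower, with HAD1 between 10.16 and 10.96 and LAD1 between 11.64 and 11.89 (adjusted p = 8.44e-09). Coq9, which is needed to make coenzyme Q, was 2.86-fold lower on 1 of its 2 probe sets (-1.52, adjusted p = 2.03e-09). Pakap, an A-kinase anchoring locus, was lower on 2 of its 4 probe sets (-1.56, adjusted p = 5.64e-07 on the larger).

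Among probe sets with a gene symbol, Plekhh1 and Amy1 had the largest excess in HAD1. Amy1, an amylase, ran from 6.49 to 8.50 in HAD1 and from 4.50 to 4.76 in LAD1, with HAD1 28 at 4.79 and LAD1 37 at 6.86. It was 6.61-fold higher (2.73 ± 0.21, adjusted p = 3.83e-08), and its spread was wider in HAD1. Plekhh1 was called on 1 of its 2 probe sets, and the other had the opposite sign without a call. On the called probe set it ran from 6.02 to 9.73 in HAD1 and from 5.36 to 5.86 in LAD1, a difference of 2.96 ± 0.358 (adjusted p = 2.01e-05). Its lowest HAD1 animal lay close to LAD1 and the other 8 lay at 7.85 or above.

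Kif15, a kinesin that acts on the mitotic spindle and on microtubules of neurons, ran from 8.34 to 9.22 in HAD1 and from 6.02 to 7.005 in LAD1 (2.168 ± 0.132, adjusted p = 1.61e-09). Ints13, a subunit of the Integrator complex that cleaves small nuclear RNAs, ran from 8.38 to 8.90 in HAD1 and from 6.22 to 6.79 in LAD1 (2.134 ± 0.0849, adjusted p = 1.69e-12) on 1 of its 3 probe sets. Syndig1l, a membrane protein related to a synapse differentiation factor, ran from 10.14 to 10.83 in HAD1 and from 8.46 to 8.90 in LAD1 (1.77 ± 0.0854, adjusted p = 3.42e-11). None of these overlapped among the 17 animals, though the other Ints13 probe sets had the opposite sign and were not called. Ccnd2, the cell cycle protein cyclin D2, was 2.9-fold higher (1.53, adjusted p = 6.4e-07), with HAD1 between 11.02 and 12.001 and LAD1 between 9.75 and 10.35. Snx10, a sorting nexin of endosomes, was 3.76-fold higher (1.91 ± 0.184, adjusted p = 1.05e-06) and called on both of its probe sets.

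**Figure D2:**
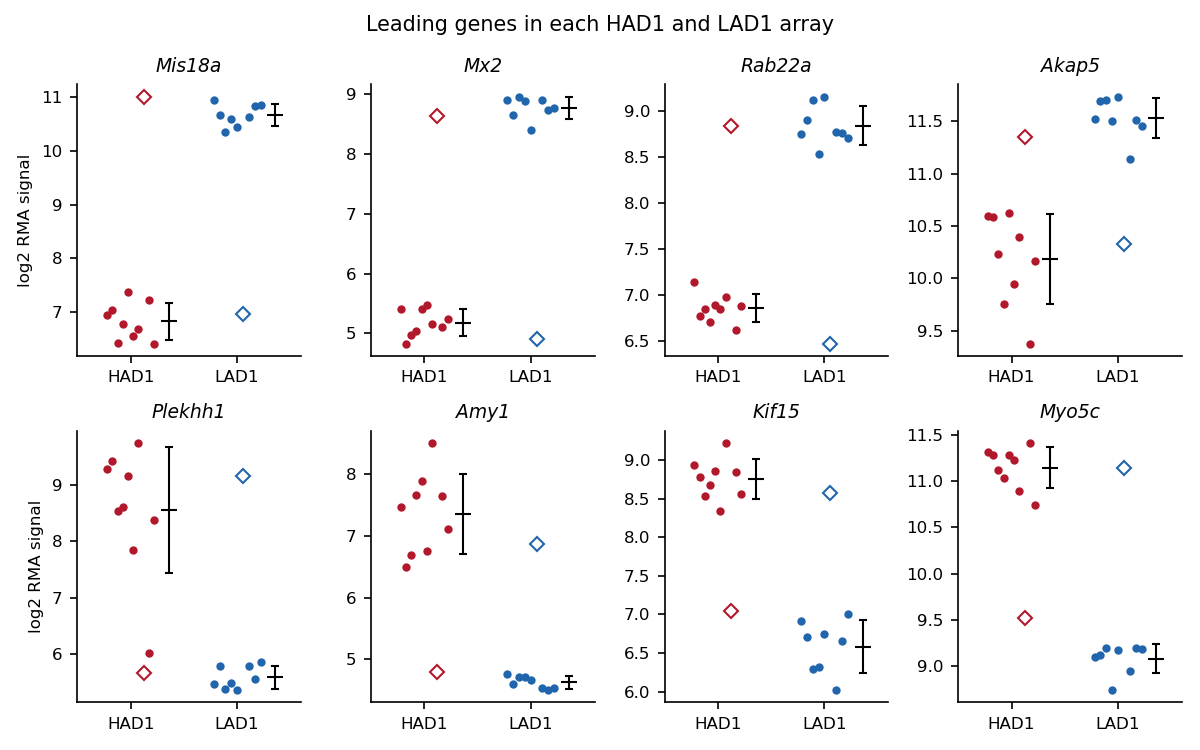
Log2 RMA signal of 8 genes in each array, HAD1 in red and LAD1 in blue. Filled points are the 17 arrays, open diamonds are HAD1 28 and LAD1 37, and black bars are the mean ± SD without the diamonds. In all 8 panels each diamond lies nearer the arrays of the other line than those of its own, for example Mis18a at 11.01 in HAD1 28 and 6.96 in LAD1 37.

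Of the 3 probe sets without overlap in all 19 arrays, 1 carried no symbol and the others belonged to Gpnmb and Trappc12. Gpnmb, a glycoprotein of phagocytic and pigment cells, was at 7.54 in HAD1 28 and 7.64 in LAD1 37, where the other HAD1 arrays ran from 7.07 to 7.56 and the other LAD1 arrays from 7.76 to 8.06. Trappc12, a subunit of a vesicle tethering complex, was at 11.70 in HAD1 28 and 11.68 in LAD1 37, where the other HAD1 arrays ran from 11.69 to 11.89 and the other LAD1 arrays from 11.54 to 11.68. Both genes parted the labels narrowly. For Gpnmb LAD1 37 lay below all the other LAD1 arrays, about midway between the line means. For Trappc12 HAD1 28 was also about midway, but just above the lowest other HAD1 array. The differences were small, -0.55 and 0.18 without these arrays. Nrg1 was mixed, with HAD1 28 at 5.68 among LAD1 arrays (5.56 to 6.20) and LAD1 37 at 6.60, just below the lowest other HAD1 array (6.69).

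The 41 gene lists of cell types and pathways held 1246 genes, of which 1115 were measured. On the brightest probe set of each gene, 48 were called with 17 arrays and 16 with 19, and 18 lists had no called member with 17. Over all tested probe sets the share called was 3.98% with 17 arrays, and the lists as a whole were close to it. The list members below are those that passed.

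Metabotropic glutamate receptors, which couple glutamate to G proteins, had 2 of 10 measured genes lower and none higher, with the same 2 called with 19 arrays. Grm5, a postsynaptic group I receptor, ran from 7.17 to 7.998 in HAD1 and from 7.92 to 9.99 in LAD1, so that the lines overlapped narrowly. Its difference was -1.22 ± 0.223 (adjusted p = 0.00209), and -1.12 with 19 arrays (adjusted p = 0.0168). A second Grm5 probe set was lower by a smaller amount, -0.33 (adjusted p = 0.0321; adjusted p = 0.0878 with 19 arrays). Grm2, a presynaptic group II receptor, ran from 6.15 to 6.75 in HAD1 and from 6.52 to 7.24 in LAD1 (-0.51, adjusted p = 0.0067). On probe sets that were not the brightest of their gene, the Grm5 scaffold Homer1 was lower (-1.35, adjusted p = 0.024) and the group III receptor Grm8 was higher (0.43, adjusted p = 0.0126), and neither was called with 19 arrays. The median difference over the list was -0.05, against -0.01 over all probe sets.

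Ionotropic glutamate receptors (22 measured), opioid peptides and receptors (8), acetylcholine receptors (19), endocannabinoid genes (8), calcium and sodium channels (36) and synaptic vesicle genes (45) had no called member on their brightest probe sets. On their other probe sets only the ionotropic receptor gene Gria4 was called (-0.38, adjusted p = 0.0282; adjusted p = 0.0687 with 19 arrays). GABA receptor genes had 1 of 23, Gabra5, a subunit of extrasynaptic receptors, at 0.32 (adjusted p = 0.0468; adjusted p = 0.462 with 19 arrays). Dopamine and monoamine genes had 1 higher and 1 lower of 30. These were Maoa, which degrades monoamines, at 0.40 (adjusted p = 0.039), and the vesicular transporter Slc18a2 at -0.28 (adjusted p = 0.0392). The transporter's RNA is made mainly in midbrain dopamine neurons, whose cell bodies lie outside this region. Neither was called with 19 arrays.

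Neuropeptides and their receptors had 2 of 53 lower and none higher. Nmb, which encodes neuromedin B, ran from 8.09 to 9.56 in HAD1 and from 9.06 to 11.99 in LAD1 and was 4.55-fold lower (-2.19 ± 0.285, adjusted p = 5.22e-05). Somatostatin (Sst), made by a class of GABA interneurons, ran from 9.05 to 10.86 in HAD1 and from 10.77 to 11.48 in LAD1 (-0.98 ± 0.204, adjusted p = 0.00665). With 19 arrays Sst was not called (-0.67, adjusted p = 0.349), since HAD1 28 read 11.09 and LAD1 37 read 9.24. The other 10 measured GABA interneuron markers were not called.

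Among kinases, phosphatases and their anchors 1 of 45 genes was higher and 2 were lower on the brightest probe set. Akap5 was described above. Prkar2a, a regulatory subunit of protein kinase A, was lower by a small amount (-0.27, adjusted p = 0.0257), and Akap13, another anchor of that kinase, was higher (0.31, adjusted p = 0.00849). With 19 arrays neither was called (adjusted p = 0.574 and 0.0626). On other probe sets the calcineurin subunit Ppp3ca (-0.25), Camkk2 (0.33) and Mapk8 (0.45 and 0.585) were called, and Rock2 in both directions. Of these genes, Ppp3ca and Rock2 were also called with 19 arrays. Atf3, a stress-induced transcription factor, was the 1 gene of 29 CREB and immediate early genes called on its brightest probe set, while Crem (0.29) and Homer1 (-1.35) were called on others. It ran from 5.05 to 5.99 in HAD1 and from 5.59 to 8.33 in LAD1 (-1.54 ± 0.267, adjusted p = 0.00129; adjusted p = 0.0581 with 19 arrays). Growth factors and receptors had 2 of 44 higher. Nrg1, the ErbB ligand neuregulin 1, was 3.04-fold higher (1.603 ± 0.164, adjusted p = 2.47e-06) and called higher on 3 of its 8 probe sets, and Tgfb3 was at 0.46 (adjusted p = 0.000343).

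Interferon response genes had members called in both directions, 5 of 35 higher and 3 lower. The share called over all probe sets was 1.96% higher and 2.03% lower. With 19 arrays Oas1b and Irf7 were called higher and Ifnlr1 lower, and the other 5 were not called on these probe sets. Oas1b, a member of the oligoadenylate synthetase family that senses double-stranded RNA, ran from 6.19 to 6.98 in HAD1 and from 4.97 to 5.35 in LAD1 (1.332 ± 0.0917, adjusted p = 8.44e-09). Ifi27, an interferon-induced mitochondrial protein, ran from 8.98 to 10.65 in HAD1 and from 8.58 to 9.17 in LAD1 (1.369 ± 0.174, adjusted p = 3.94e-05). Irf7, the transcription factor that amplifies the response, was at 0.59 (adjusted p = 0.00261), the deconjugating protease Usp18 at 0.44 (adjusted p = 0.0075) and Oas1a at 0.18 (adjusted p = 0.0474). Lower members were Mx2, the receptor subunit Ifnlr1 and the membrane protein Ifitm1 (-0.44, adjusted p = 0.0213). Ifnlr1, through which type III interferons signal, ran from 5.25 to 5.65 in HAD1 and from 6.71 to 7.54 in LAD1 (-1.58 ± 0.103, adjusted p = 4.12e-09). The list's median difference was 0.10. Oas1a and Oas1b are close paralogs, and their probe sets could share signal.

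The promoters of the interferon response genes were read from RefSeq (build GRCr8), where 27 of the list's genes matched. The motif searched was GAAA, then any 2 bases, then GAAA again, the core of an interferon-stimulated element, on both strands of the 250 bases before the start of each gene. It was found in 14 of the 27, and in 1140 of all 33469 promoters (3.41%). The list was made of interferon response genes, so this share has no bearing on the difference between HAD1 and LAD1. Of the 5 matched genes that were called, 4 held it and Ifnlr1 did not. Windows of 60 bases are printed in the direction of the gene because these are the called genes with a match, with the matched bases in capitals. In Oas1a and Oas1b 2 matches overlap, Ifi27 has a second match nearer its start that is outside the window, and in Irf7 the match is on the opposite strand.
Oas1a, chr12:41330400-41330459, plus strand: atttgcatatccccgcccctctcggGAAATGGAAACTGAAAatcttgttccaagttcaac
Oas1b, chr12:41395877-41395936, minus strand: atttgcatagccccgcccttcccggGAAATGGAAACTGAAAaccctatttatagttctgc
Irf7, chr1:205800058-205800117, minus strand: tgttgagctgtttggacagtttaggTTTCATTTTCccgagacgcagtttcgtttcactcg
Ifi27, chr6:128355118-128355177, plus strand: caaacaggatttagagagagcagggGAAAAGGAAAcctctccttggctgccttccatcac
The Oas1a and Oas1b windows carry the same capitals, although Oas1b differed by 1.332 and Oas1a by 0.18. The remaining 10 matched genes with the motif were not called. Ifi44l was at 0.46 and Rsad2 at 0.41, while Gbp2 was at 0.0021 and Eif2ak2 at -0.0014. A match is a string of letters and is no measure of binding.

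Genes of the major histocompatibility complex and antigen processing had 4 of 23 higher and none lower, and none with 19 arrays. The share called over all probe sets was 1.96% higher and 2.03% lower, and the list's median difference was -0.014. RT1-S3, a class I gene, was higher on all 4 of its probe sets, by 0.30 to 0.73, with adjusted p from 2.01e-06 to 0.0416. RT1-T24-4 ran from 5.84 to 8.16 in HAD1 and from 5.54 to 6.03 in LAD1 (1.58 ± 0.224, adjusted p = 0.000143; adjusted p = 0.0581 with 19 arrays). RT1-CE16 was at 0.64 (adjusted p = 0.0115), and Psmb8, a catalytic subunit of the immunoproteasome, was at 0.54 (adjusted p = 0.00127). RT1 genes have near-identical copies, so the gene behind these signals is uncertain. Of the 36 measured proteasome genes none was called.

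Motor proteins had 3 of 50 genes higher and 1 lower, and with 19 arrays 2 higher and 1 lower. Kif15 and Myo5c led the higher members and Kif1c was at 0.39 (adjusted p = 0.00867; adjusted p = 0.241 with 19 arrays). Myo5a, the myosin that carries organelles along actin into dendritic spines, ran from 9.14 to 9.95 in HAD1 and from 10.31 to 11.36 in LAD1 (-1.09 ± 0.136, adjusted p = 2.99e-05). Its relative Myo5c ran from 10.74 to 11.41 in HAD1 and from 8.74 to 9.19 in LAD1 (2.06 ± 0.0889, adjusted p = 4.83e-12). The myosins neither overlapped between the lines nor differed in the same direction. Kif5c, an axonal kinesin, was lower on a probe set that was not its brightest (-1.06, adjusted p = 6.27e-05).

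Extracellular matrix and integrin genes had 1 of 54 higher and 3 lower, and with 19 arrays only Itgb2, at -0.49, was called (adjusted p = 0.0372). Tenascin C (Tnc) was higher (0.76, adjusted p = 0.00567; adjusted p = 0.34 with 19 arrays). The leukocyte integrin subunit Itgb2 ran from 7.49 to 7.76 in HAD1 and from 7.78 to 8.51 in LAD1 (-0.62, adjusted p = 3.43e-05), Col6a3 was at -0.43 (adjusted p = 0.0163) and fibronectin (Fn1) at -0.20 (adjusted p = 0.0394). With 19 arrays the adjusted p was 0.439 for Col6a3 and 0.238 for Fn1. In detoxification, Gsta4, a glutathione transferase for lipid peroxidation products, ran from 9.23 to 10.16 in HAD1 and from 10.50 to 11.09 in LAD1 (-1.05 ± 0.122, adjusted p = 1.12e-05). Thioredoxin 2 (Txn2) was at 0.22 (adjusted p = 0.0326; adjusted p = 0.436 with 19 arrays), and the other 46 measured antioxidant genes were not called. Aldh2, the mitochondrial dehydrogenase that clears acetaldehyde made from alcohol, was the 1 called gene of 23 in alcohol and aldehyde metabolism. It ran from 9.29 to 10.18 in HAD1 and from 9.94 to 10.35 in LAD1 (-0.38 ± 0.0919, adjusted p = 0.0215), and it was not called with 19 arrays (-0.30, adjusted p = 0.184).

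**Figure D3:**
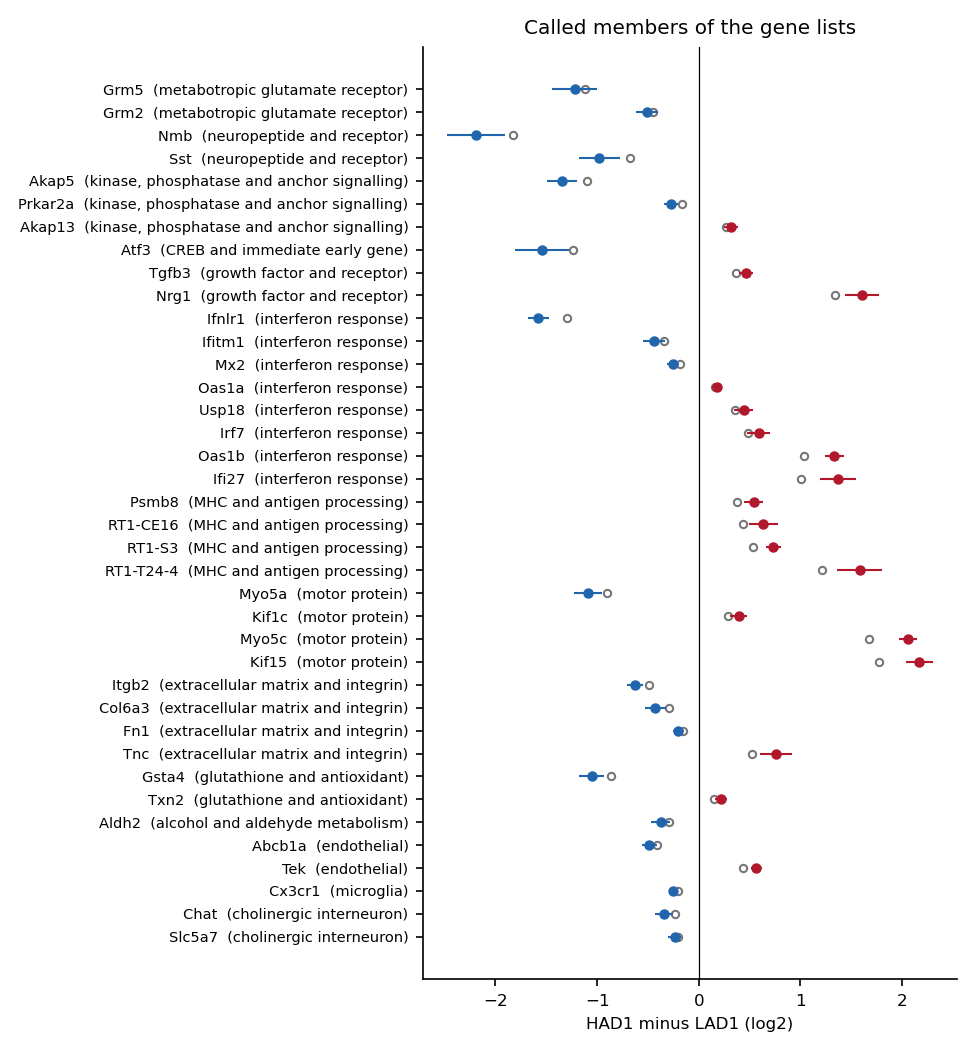
HAD1 minus LAD1 differences (log2) of called list members on the brightest probe set of each gene, for the lists named in brackets. Filled points with bars are the difference ± SE without HAD1 28 and LAD1 37 (red higher, blue lower in HAD1), and open points are the differences with all 19 arrays. Nmb at -2.19 and Kif15 at 2.168 lie farthest out, and the Mx2 point is its brighter probe set at -0.25.

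Markers of other cell types had between none and 2 called members a list. Cholinergic interneuron markers had 2 of 3 lower, the acetylcholine synthase Chat at -0.34 (adjusted p = 0.0331) and the choline transporter Slc5a7 at -0.24 (adjusted p = 0.0483), and none with 19 arrays. Microglial markers had 1 of 15 lower, the fractalkine receptor Cx3cr1, which ran from 6.89 to 7.12 in HAD1 and from 7.19 to 7.35 in LAD1 (-0.25, adjusted p = 0.00132; adjusted p = 0.0527 with 19 arrays). Oligodendrocyte markers had 1 of 15 higher on the brightest probe set, the myelin protein Mobp, at 0.41 (adjusted p = 0.00406; adjusted p = 0.181 with 19 arrays), but Mobp was lower on another. Of 12 endothelial markers, the angiopoietin receptor Tek was higher, from 9.89 to 10.22 in HAD1 and from 9.35 to 9.66 in LAD1 (0.57, adjusted p = 5.65e-07). The drug efflux pump Abcb1a was lower (-0.49, adjusted p = 0.000268), and both were called with 19 arrays. On the brightest probe sets, no marker of the astrocyte (13 measured), mural and meningeal (15), blood (5) or neighbouring forebrain (10) lists was called. The astrocyte marker Slc1a2 was lower on a dimmer probe set (-0.47, adjusted p = 0.000612; adjusted p = 0.0399 with 19 arrays).

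A tissue index, the mean spiny neuron marker level minus the mean level of the neighbouring region markers, was 4.43 ± 0.301 (SD, n = 10) in HAD1 and 4.65 ± 0.266 (n = 9) in LAD1. The difference was -0.222 (two-sided exact permutation p = 0.107). With 17 arrays it was -0.297 (exact permutation p = 0.0448; 0.131 after adjustment over 4 such values). The neighbouring region markers were higher in HAD1 by 0.22 (adjusted exact permutation p = 0.131), and the spiny neuron markers differed by -0.0773 (adjusted exact permutation p = 0.183). The Affymetrix Gapdh 3' minus 5' signal, which rises as RNA is shortened, differed by -0.149 (exact permutation p = 0.341). Over the pair it ran from 4.19 to 5.38, above its range in the 6 lines other than the HAD and LAD ones (-0.06 to 0.80). The part of this level in single probe sets was not tested. With the index as a covariate the calls fell to 765 with 17 arrays and to 50 with 19, and the part of tissue composition in single genes was not tested beyond this. The 30 largest differences and the 30 largest without overlap all kept their call and sign under the index with 17 arrays, whereas with 19 arrays and the index 7 of each 30 were called. Of the 46 list members named by rule, 14 lost their call under the index with 17 arrays, with adjusted p from 0.0514 to 0.329. They were Chat, Slc5a7, Rsph1, Maoa, Slc18a2, Gabra5, Akap13, Prkar2a, Txn2, Aldh2, Kif1c, Rab26, Tnc and Fn1.

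Some genes gave opposite calls on their own probe sets, 16 with 17 arrays. Rock2, a kinase that acts on the actin skeleton, was lower on one probe set, from 6.91 to 7.43 in HAD1 and from 8.18 to 8.56 in LAD1 (-1.17, adjusted p = 5.31e-09). On another it was higher, from 11.54 to 12.03 in HAD1 and from 10.44 to 11.15 in LAD1 (1.05, adjusted p = 3.06e-07). Neither overlapped, so the gene as a whole had no single direction. Myo5c was higher on 2 probe sets (2.06 and 1.03) and lower on the third (-0.66, adjusted p = 6.67e-05). Ntrk2, the receptor for brain-derived neurotrophic factor, was at -0.97 (adjusted p = 0.00187) and 0.27 (adjusted p = 0.0452), neither called with 19 arrays, and Mobp at -0.53 (adjusted p = 0.00118) and 0.41 (adjusted p = 0.00406). Wdr36 was lower on 2 probe sets and higher on 1, and Zfp212 was at 1.46 and -0.42. The remaining genes of this kind were Clic4, Clip1, Crot, Gnpat, Hid1, Mapk1ip1l, Runx1t1, Thumpd3, Tmed4 and Zfp536. Probe sequences were not used here, and whether these probe sets read different transcripts or line-specific sequence was not tested. Genes with many probe sets that were all called one way were Bcl6b, a transcriptional repressor, lower on 4 of 4 (-0.56 to -0.81), and RT1-S3. No probe set of either gene was called with 19 arrays. Under the tissue index with 17 arrays all 4 Bcl6b probe sets lost their call (adjusted p from 0.0786 to 0.146), as did 2 of the 4 of RT1-S3 (adjusted p = 0.0559 and 0.114).

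In several leading genes the lines differed in spread as well as in mean. Among the 1237 called probe sets, the SD was more than 4 times larger in HAD1 for 26 and in LAD1 for 17, 2.1% and 1.374%, against 0.254% and 0.226% of all tested. Sgcb, a sarcoglycan of the dystrophin complex, had 3 HAD1 animals between 6.94 and 7.11 and 6 between 10.33 and 11.38, with LAD1 between 6.90 and 7.47. The low HAD1 animals sat among LAD1 values, and the mean difference of 2.62 (adjusted p = 0.0278; adjusted p = 0.411 with 19 arrays, and 0.162 under the tissue index) describes no animal of HAD1. LAD1 37 read 11.66 and HAD1 28 read 6.87. Pop5, a subunit of RNase P, was called on 1 of its 2 probe sets. There it had 2 HAD1 animals at or below 7.07 and 7 at or above 8.68, with LAD1 from 6.66 to 6.97. Albumin (Alb), a liver protein, had 6 HAD1 animals from 6.65 to 8.09 and 3 from 9.37 to 10.33, with LAD1 from 9.82 to 10.49.

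The reverse held for other genes, which were even in HAD1 and split in LAD1. Ramac, the activating subunit of the mRNA cap methyltransferase, was called on 1 of its 2 probe sets, and the other had the opposite sign. On the called probe set it lay between 10.69 and 11.07 in HAD1 (SD 0.117). In LAD1, 5 animals lay between 6.57 and 7.41 and 3 between 9.88 and 10.85 (SD 1.76). Crebl2, related to the CREB factors, had 4 LAD1 animals at or below 7.92 and 4 at or above 9.57, with HAD1 from 10.16 to 10.90. This was on 1 of its 2 probe sets, and the other had the opposite sign without a call. Lsg1, a ribosome export GTPase, had 3 LAD1 animals within the HAD1 range (7.93 to 8.53) and 5 from 9.89 to 10.87. Its call (adjusted p = 0.0336) was lost with 19 arrays (adjusted p = 0.392) and under the tissue index (adjusted p = 0.236). Fits that assume one spread for both lines give these genes standard errors that describe neither line.

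**Figure D4:**
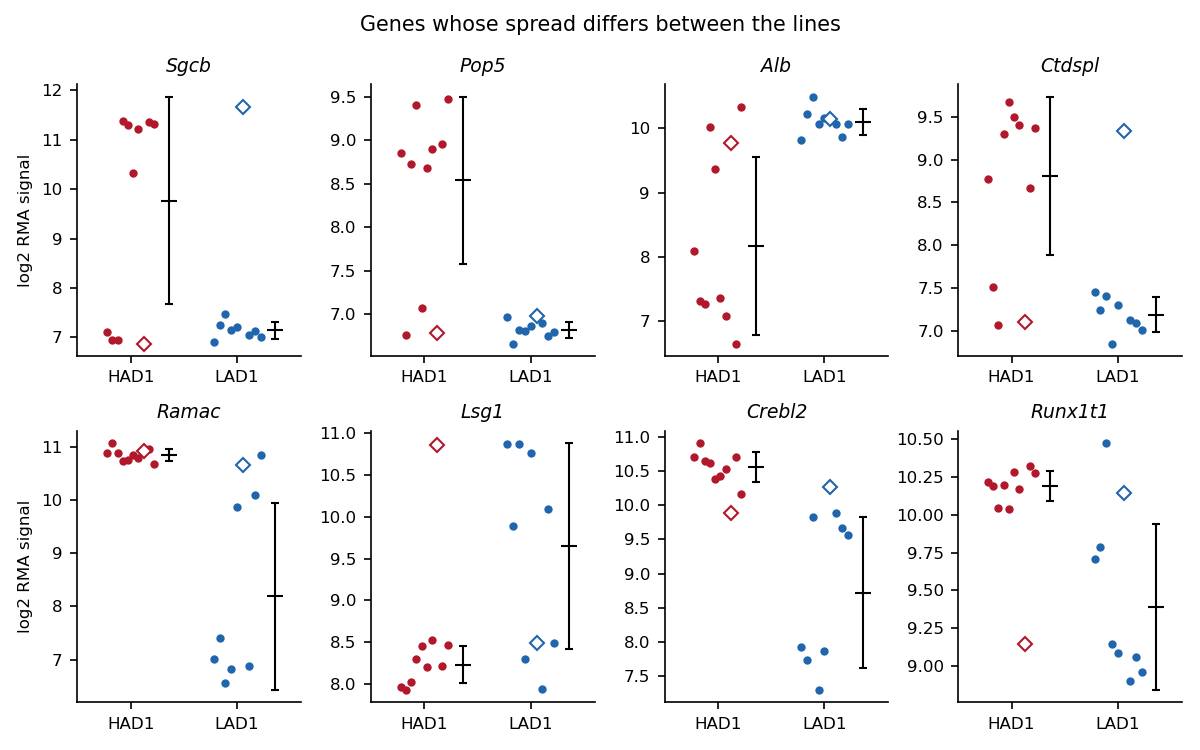
Log2 RMA signal of 8 genes whose SD differed more than 4 times between the lines, with the same colours, diamonds and bars (mean ± SD of the 17 arrays) as in the plot of leading genes. In the upper row HAD1 is the wider line, for example Sgcb with 3 low and 6 high animals, and in the lower row LAD1 is the wider line, for example Ramac with 5 low and 3 high.

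Called genes often lay next to each other. In the gene order of the GRCr8 assembly, 14167 measured genes were placed, and 662 (4.67%) had a called probe set. Of these, 155 (23.4%) had a called gene as their next measured neighbour on either side, against 1108 of the 13505 genes not called (8.2%). Of 80 neighbouring pairs that were both called, 40 had the same direction and the rest the opposite. The longest run, allowing 1 gene not called between members, had 7 called genes: Ttc19, Ncor1, Pigl, Trpv2, Mmgt2, Trim16 and Tvp23b. Ncor1, a corepressor of nuclear receptors, ran from 8.42 to 8.96 in HAD1 and from 9.30 to 9.84 in LAD1 (-1.004, adjusted p = 6.05e-08). The cation channel Trpv2 (0.41) and the ubiquitin ligase Trim16 (0.41) were higher, and the others were lower by 0.18 to 0.37. With 19 arrays Ncor1 and Trim16 were called in this run.

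None of a run of 5 was called with 19 arrays. It joined Timm44, Elavl1, Cers4, Fry and B3glct, where the RNA-binding protein Elavl1 was higher (1.48) and Fry was lower (-1.06). Myo5a and Myo5c, which differed in opposite directions, belonged to a run of 4 with Atosa and Bcl2l10. Another run of 4 held Prr5l, Ldlrad3, Pamr1 and Slc1a2, the main astrocytic glutamate transporter. Slc1a2 was lower there on its dimmer probe set (-0.47, adjusted p = 0.000612). Ldlrad3 and Pamr1 did not overlap between the lines, and their differences were 0.63 and -0.64. The last run of 4 held Sspn, Ints13, Tm7sf3 and Med21. Within every one of these 5 runs some genes were higher and others lower.

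HAD2 and LAD2, of which 10 animals each were profiled, had 1428 called probe sets (4.6%). Called in both pairs were 349, which is 28.2% of the 1237 of HAD1/LAD1 and 24.4% of the 1428. Of these, 188 had the same direction in both pairs and 161 the opposite. The difference between the pairs was itself called for 948 probe sets (3.05%) with all arrays and for 1145 (3.69%) without HAD1 28 and LAD1 37. Of the 1237 calls of HAD1/LAD1, 533 (43.1%) were among the latter. The pairs also differed in the Gapdh 3' minus 5' signal, which ran from 4.19 to 5.38 in HAD1 and LAD1 and from 2.299 to 3.60 in HAD2 and LAD2, and its part in these differences was not tested.

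Some of the leading genes were opposed between the pairs and others were not. On the probe set with its larger difference, Mx2 was at 3.40 in HAD2/LAD2 (adjusted p = 2.47e-13), opposite to its -3.60 in HAD1/LAD1. The brighter Mx2 probe set was at 0.11 in HAD2/LAD2 and not called (adjusted p = 0.828). Sgcb was at -3.14 against 2.62, the glycosylation enzyme Galnt1 at -1.70 against 1.94, and Elavl1 at -2.04 against 1.48. Ptprj was at 1.42 against -1.94 and Akap5 at 1.02 against -1.35. In HAD1/LAD1 Galnt1 was called this way on 1 of its 4 probe sets and Ptprj on 1 of its 2. For all 6 genes, on the probe sets given, the difference between the pairs was called with 19 and with 17 arrays. Probe sets with 1 direction in both pairs included that of Kif15, at 1.999 in HAD2/LAD2 and 2.168 in HAD1/LAD1. Rab22a was at -1.56 and -1.98 in the same order, and Paqr8, a membrane progestin receptor, at -1.56 and -1.47. Plekhh1 was at 1.68 and 2.96, and RT1-T24-4 at 2.33 and 1.58. In HAD1/LAD1 Rab22a was called on 1 of its 3 probe sets, Paqr8 on 1 of 4 and Plekhh1 on 1 of 2. Mis18a (-0.24, adjusted p = 0.443) and Amy1 (0.60, adjusted p = 0.301) were not called in HAD2/LAD2. Ifi27 was at 1.212 and 1.369. Grm5 was lower in both, by -2.57 in HAD2/LAD2 and -1.22 in HAD1/LAD1, and the sizes differed (adjusted p = 0.00949 for the difference without HAD1 28 and LAD1 37).

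**Figure D5:**
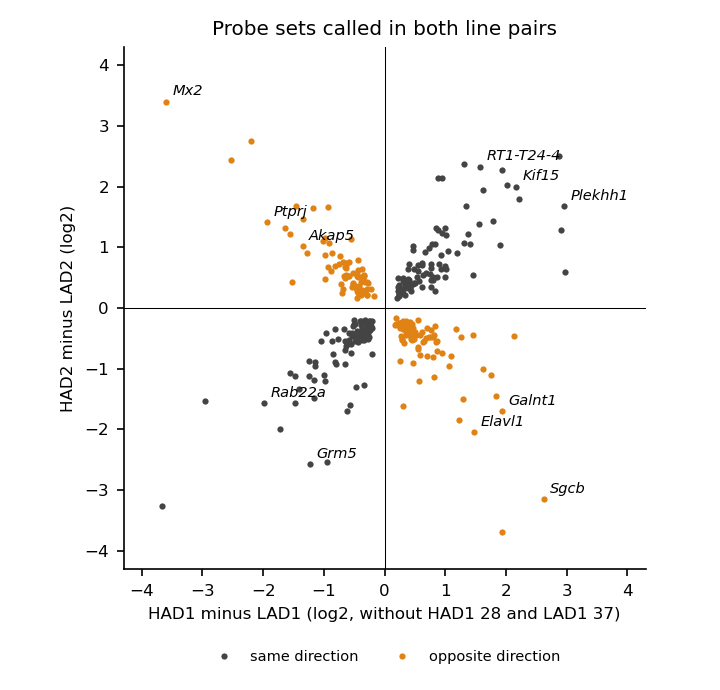
Differences between the lines (log2) for the 349 probe sets called in both pairs, HAD1 minus LAD1 without HAD1 28 and LAD1 37 on the horizontal axis and HAD2 minus LAD2 on the vertical axis. Grey points (188) have the same direction and orange points (161) the opposite. Mx2 lies at the upper left and Sgcb at the lower right.

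The mean difference of the other 4 line pairs differed from that of HAD1/LAD1 in 700 probe sets (2.26%) with all arrays, and in 1295 (4.17%) without the 8 arrays of the series whose label score lay more than 0.3 from their labelled end. Where the pair stood apart, 1 line sometimes lay farther than the other from the range of the 8 other lines. Myo5c had a mean of 11.14 in HAD1, and the other lines had means from 6.85 to 8.93, so that LAD1 at 9.08 was also above them. Coq9 had a mean of 6.62 in HAD1 against 8.14 in LAD1 and 7.7 to 8.33 elsewhere. Somatostatin was at 10.16 in HAD1, with LAD1 at 11.138, just below the others, which ran from 11.141 to 12.99. In other genes LAD1 was the line farther out, although HAD1 also lay just outside the others in Snx10, Nrg1 and Atf3. Snx10 was at 10.43 in LAD1, against 12.34 in HAD1 and 11.9 to 12.1 elsewhere. Nrg1 was at 5.85 in LAD1, against 7.45 in HAD1 and 7.51 to 8.02 elsewhere. Atf3 was at 6.96 in LAD1, against 5.42 in HAD1 and 4.66 to 5.36 elsewhere. Akap5 was at 11.53 in LAD1 and 10.19 in HAD1, with the others from 8.69 to 10.7. Whether 1 line is outside the others was read from line means and was not tested. The Gapdh 3' minus 5' signal of the 6 lines other than the HAD and LAD ones ran from -0.06 to 0.80, below the whole range of this pair, and its part in these line means was not tested.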

How the data were processed

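RNA from 19 animals, 25 ng of total RNA amplified in 2 cycles per the labels' protocols, was hybridised to 1 array each. The authors deposited log2 signals summarised with RMA, per the submitters' processing notes, and these log2 values were used as deposited. The 57 AFFX controls were left out of 31099 probe sets. Of the 31042 tested, 20826 carried 1 gene symbol, 436 several and 9780 none, from the platform annotation. The number of arrays limits the precision.

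HAD1 and LAD1 were compared with limma 3.58.1 in R 4.3.3 (lmFit, eBayes, two-sided). Comparisons between pairs used 1 limma fit of 97 arrays with 1 mean per line. Single values were tested by exact permutation over arrays. Alternatives covered the prior, dim probe sets, normalization, array weights, covariates and omitted arrays, and the scripts were tested on simulated data.

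Members, gene lists and rules were chosen with earlier results of these data known. Named genes were the 15 largest differences each way with 19 arrays, the 15 largest each way without overlap with 17, calls without overlap with 19, and called list members (up to 6 a list). Also named were genes with 3 or more probe sets all called one way, the 10 largest shared with HAD2/LAD2 in the same and in the opposite direction, the 5 longest runs of neighbours, and genes with opposite probe sets. Provisional symbols were skipped. Oas1a, Ifitm1 and the list members on probe sets that were not the brightest were added after their values were seen, as was the comparison of spread.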

Additional observations from a re-analysis of the deposited data

Results flagged for a closer look

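In the named genes 140 probe sets were examined in each line, 280 tests in all, for a lone array far from the rest of its line. HAD1 28 stood apart from the other HAD1 arrays in 37 and LAD1 37 from the other LAD1 arrays in 53. Other arrays stood apart in 4, namely HAD1 29 in Slc18a2, HAD1 27 in Bcl6b, LAD1 33 in Gnpat and LAD1 35 in Thumpd3. Chance gives about 1 in 20 such tests. The genes were named partly for parting the lines, so the counts for HAD1 28 and LAD1 37 share that choice with the label score.

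The HAD1 minus LAD1 difference differed from the HAD2 minus LAD2 difference in 948 probe sets and from the mean difference of the other 4 pairs in 700 (limma contrasts over 97 arrays). The 10 genes with the largest opposed differences were each read on a single probe set. With all 97 arrays, the HAD1/LAD1 difference minus the HAD2/LAD2 difference was -6.22 for Mx2, 4.98 for Sgcb, 3.34 for Galnt1 and 3.17 for Elavl1. It was 3.05 for Crebl2, -2.87 for Ptprj, 2.79 for the mitochondrial chaperone Hspa9, -2.39 for Eeig2, -2.11 for Akap5 and -1.62 for Epm2aip1.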

How the results depend on the processing

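The 371 calls with 19 arrays became 842 with array weights, 743 with all lines in 1 fit, 207 where a difference above 0.5 log2 was also required, 50 with the tissue index as a covariate and 1237 without HAD1 28 and LAD1 37. Leaving out each array in turn gave 178 to 795, the lowest without LAD1 32. The count was 754 without HAD1 28 and 795 without LAD1 37. It fell by more than 1.5 times without HAD1 21 (216), 22 (231), 23 (246), 24 (228), 26 (239) or 29 (231), and without LAD1 31 (243), 32 (178), 33 (224), 34 (187), 35 (208), 38 (226) or 40 (239). The 1237 calls became 765 with the tissue index and 490 above 0.5 log2, and ranged from 1033 to 1250 as each of the 17 arrays was left out. The 700 probe sets that differed from the other 4 pairs became 1124 without HAD1 28 and LAD1 37, and 1295 without the 8 departing arrays. The tissue index difference became -0.297 without HAD1 28 and LAD1 37. The other settings run on these counts moved them by less than 1.5 times. No named gene changed sign under quantile normalization with 19 arrays, where Irf7 (0.49) and Bcl2l10 (0.25) lost their call and Cx3cr1 (-0.20) gained one. No paired analysis was possible because HAD1 and LAD1 share no animal numbers. The signal of dim probe sets over background cannot be judged from RMA values alone, and a low signal is no sign of absence.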

Other observations

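Lists that the text above left aside had few called members. Rab GTPases had 1 of 52 genes called on the brightest probe set, Rab26, a GTPase of secretory vesicles, at 0.23 (adjusted p = 0.0095, limma with 17 arrays). Chaperones had 2 of 55 higher, the endoplasmic reticulum proteins Pdia4 (0.41, adjusted p = 0.00204) and Hsp90b1 (0.24, adjusted p = 0.0416). Potassium channels had 1 of 57, Kcnk1, at 0.29 (adjusted p = 0.0203). Oxidative phosphorylation had 1 of 67, Ndufa4, which ran from 12.85 to 13.01 in HAD1 and from 13.02 to 13.23 in LAD1 (-0.20, adjusted p = 0.00653). Ependymal and choroid plexus markers had 1 of 7, Rsph1, a cilium protein, at 0.20 (adjusted p = 0.0362). These counts are for the brightest probe sets, and none of these genes was called with 19 arrays. Clock genes (20 measured), histone and DNA modifiers (50) and tyrosine phosphatases (36) had no called member on the brightest probe set. On other probe sets Hlf (0.28), Kdm5b (-0.22), Ptpn4 (-1.10) and Ptprj (-1.94) were called.

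Smaller leading differences included Cyp2j10, a cytochrome P450, higher in HAD1 (1.255, adjusted p = 2.33e-08), and Klhl42, a cullin adaptor, higher (1.46, adjusted p = 3.24e-07; adjusted p = 0.0584 with 19 arrays). Nek1, a kinase of cilia and DNA repair, was lower (-1.15, adjusted p = 0.000206), as was Inhca (-1.20, adjusted p = 1.57e-05). The HAD1 and LAD1 animals overlapped in none of these but Nek1, in which HAD1 ran from 7.80 to 8.93 and LAD1 from 8.73 to 9.97.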
